A study of Mus musculus with 6 samples.

Results

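The intermediate filament and lamin genes described here were 10 genes chosen by symbol: Vim, Des, Nes, Synm, Krt7, Krt8, Krt18, Krt19, Lmna and Lmnb1. They were found by gene identifier among the 57132 identifiers listed in the count table, and all 10 had at least 1 count. After the filter on low counts 9 of them were among the 16263 genes tested, and Krt8 was not tested. RNA-seq had been performed on immortalized podocytes, the epithelial cells that cover the outside of the glomerular capillaries. The 3 WT samples carried the genotype Col4a3+/+ and the 3 AS samples Col4a3-/-, a model of Alport syndrome in which a collagen IV chain of the glomerular basement membrane is missing. Both lines came from male mice aged 8 weeks, were untreated, and according to the labels were grown at 33 °C with 20 U/mL interferon gamma and differentiated for 14 days at 37 °C. The methods of the study give a lower interferon dose, a shorter differentiation, and no interferon during it.

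Both lines also share the H-2Kb-tsA58 transgene, in which an interferon-inducible promoter drives a temperature-sensitive T antigen, and the transgenic parent had a mixed CBA/Ca and C57BL/10 background. The strain of the Col4a3 knockout mice crossed with it is not stated for these lines, nor is the share of each background in a line. Each genotype was 1 cell line, so genotype and line cannot be told apart. Samples of a line were numbered as sets and nothing states that they were separate cultures, so the p-values measure only the spread between these samples. Total counts were 45417221 to 54290968 per sample. Col4a3, the gene targeted in the AS line, was at 938, 1052 and 1272 CPM, the counts scaled to a common library size, in WT podocytes and at 62.4, 61.2 and 82.9 CPM in AS podocytes, which fits the labels (log2 fold change -3.98, edgeR quasi-likelihood test with Benjamini-Hochberg adjustment, adjusted p = 1.31e-07). Of 8 podocyte markers, Synpo, Actn4, Cd2ap, Wt1 and Podxl had means above 1 CPM in both lines. Nphs1, which encodes the slit diaphragm protein nephrin, and Ptpro stayed below 0.5 CPM in every sample, and Tcf21 had no count. The 6 markers tested were lower in the AS line at an adjusted p under 0.05, against 19.6% of all genes tested. Of these 6, Nphs1 passed the filter on low counts only through its WT samples. The 8 summed to 1719 to 1891 CPM in WT samples and 1282 to 1371 CPM in AS samples.

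Intermediate filaments are ropes of coiled-coil proteins that give cells and nuclei their mechanical strength. Type I and type II keratins assemble only as pairs of 1 of each type and are typical of epithelia, vimentin and desmin are type III proteins that can form filaments by themselves, nestin and synemin copolymerize with them, and the lamins of type V line the inside of the nuclear envelope. Mature podocytes are unusual among epithelial cells in that they carry vimentin and nestin, while keratins are typical of the parietal and tubular epithelium around them.

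Of the 9 genes tested, 3 differed between the lines, and all 3 were lower in AS podocytes: Synm, Krt19 and Krt18. Across all genes tested, 40.1% were called in either direction, 20.4% higher and 19.6% lower in AS podocytes, and the share among the 9, 33.3%, lay below the first of these and above the last, so nothing is read from it. The groups did not overlap for the same 3 genes, against 52.3% of all genes tested. For 2 of the 3, Krt19 and Krt18, the fold exceeded 2, which 11.2% of all genes tested reached together with the adjusted p, and both passed the filter on low counts through their WT samples, so their count is no support. The median log2 fold change of the 9 genes was -0.03 and the median size was 0.27, next to 0.0061 and 0.28 over all genes tested.

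**Figure D1:**
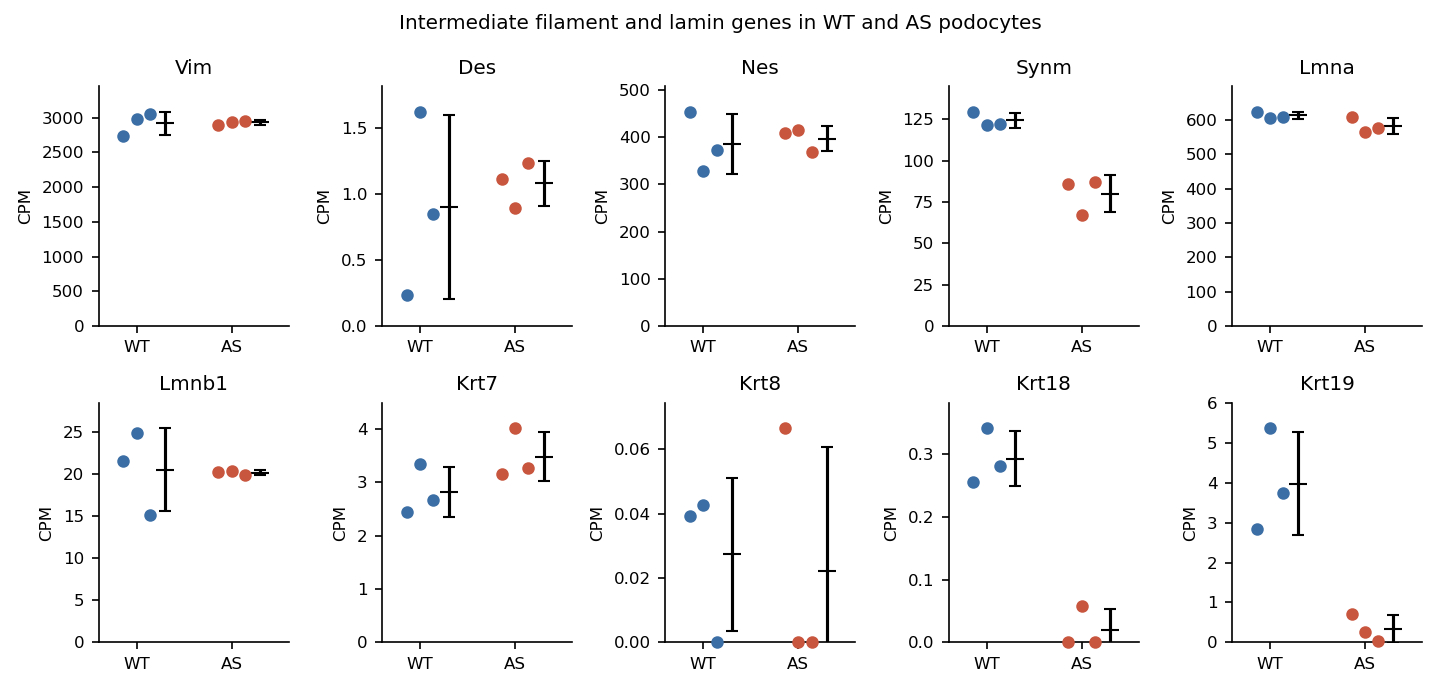
CPM of the 10 genes in each sample (points) of WT (blue) and AS (red) podocytes, with the mean and SD of 3 samples as the bar beside them. Each panel has its own linear axis from 0, and SD bars that would pass below 0 are drawn to 0. Synm, Krt18 and Krt19 have no AS point at the height of a WT point.

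**Figure D2:**
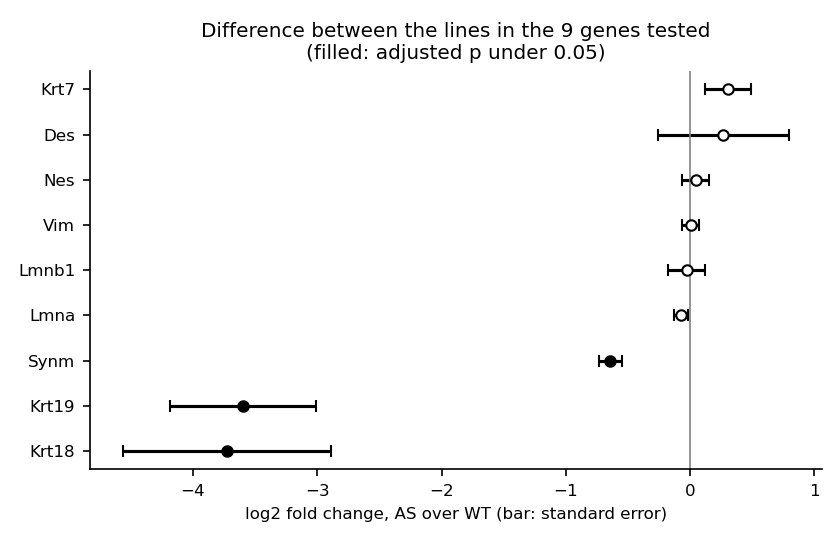
Differences between AS and WT podocytes as log2 fold change (x axis) for the 9 genes tested, with bars of 1 standard error. Filled points mark Synm, Krt19 and Krt18, which passed an adjusted p of 0.05, and the open points of the other 6 lie between -0.07 and 0.31.

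To show the regions from which an abundant gene that was not called and a pair of genes lower in AS podocytes are transcribed, the 250 bases before the annotated start of Vim, Synm and Krt18 are given from RefSeq on the build GRCm38.p6. They are written 5′ to 3′ on the strand of the gene, and capitals mark matches to a motif on either strand. Promoter sequences were found for 8 of the 10 genes. The window of Vim is chr2:13574061-13574310 on the plus strand, that of Synm is chr7:67759743-67759992 on the minus strand, and that of Krt18 is chr15:102027966-102028215 on the plus strand.
Vim: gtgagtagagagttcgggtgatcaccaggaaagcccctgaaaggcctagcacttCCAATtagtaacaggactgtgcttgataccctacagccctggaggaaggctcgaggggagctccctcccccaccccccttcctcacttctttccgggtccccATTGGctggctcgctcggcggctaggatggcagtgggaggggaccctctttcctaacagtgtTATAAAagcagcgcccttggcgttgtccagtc
Synm: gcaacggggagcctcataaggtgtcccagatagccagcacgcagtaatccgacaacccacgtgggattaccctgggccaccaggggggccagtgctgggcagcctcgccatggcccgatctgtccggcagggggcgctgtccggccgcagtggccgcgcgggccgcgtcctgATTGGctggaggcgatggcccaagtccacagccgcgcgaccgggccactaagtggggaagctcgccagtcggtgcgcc
Krt18: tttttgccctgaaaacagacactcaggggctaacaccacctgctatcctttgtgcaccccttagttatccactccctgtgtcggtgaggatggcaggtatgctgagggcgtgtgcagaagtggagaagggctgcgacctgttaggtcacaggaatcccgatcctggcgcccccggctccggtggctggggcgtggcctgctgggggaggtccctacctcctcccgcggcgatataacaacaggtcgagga
The 3 windows held 58.4% G and C for Vim, 70.0% for Synm and 60.4% for Krt18, against a median of 52.4% over all promoters. A set of 5 motifs was searched on both strands, namely TATAAA, then GGGCGG, then CCAAT, then TGANTCA, and the CArG box by its name. Vim held TATAAA with its first base at -32 from the start, and it held CCAAT in 2 places. TATAAA is held anywhere in the window by 12.4% of 32851 promoters of the same length. Synm held CCAAT once, with its first base at -78, and 33.8% of all promoters hold that motif. None of the 5 was found in the Krt18 window. GGGCGG is held by 32.7% of all promoters, TGANTCA by 6.75% and the CArG box by 1.47%.

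Vim, which encodes vimentin, the type III protein of mesenchymal cells and podocytes, had the highest level of the 10 per length of transcript. Vim (ENSMUSG00000026728.10, chromosome 2) was at 2734, 2978 and 3051 CPM in WT podocytes and at 2896, 2944 and 2955 CPM in AS podocytes. All 3 AS samples lay inside the WT range. Its log2 fold change was 0.0054 (SE 0.07, adjusted p = 0.960 by edgeR), and the approximate 95% interval of the fold ran from 0.912 to 1.11.

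Nes encodes nestin, a large type IV protein that needs a partner such as vimentin to enter filaments. Nes (ENSMUSG00000004891.17, chromosome 3) was at 454, 328 and 373 CPM in WT podocytes and at 409, 415 and 368 CPM in AS podocytes. The AS values again lay inside the WT range, with a log2 fold change of 0.05 (SE 0.11, edgeR adjusted p = 0.773) and an interval of the fold from 0.889 to 1.20.

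Synm encodes synemin, a type IV protein that joins vimentin or desmin filaments to adhesion sites and to the dystrophin-associated complex, and it was lower in AS podocytes. Synm (ENSMUSG00000030554.17, chromosome 7) was at 129.5, 121 and 122 CPM in WT podocytes and at 85.7, 66.9 and 86.8 CPM in AS podocytes. The lowest WT sample stood above the highest AS sample. The means were 124 ± 4.51 CPM and 79.8 ± 11.2 CPM (SD, n = 3 each). The AS mean was 0.642 times the WT mean, with a log2 fold change of -0.64 (SE 0.09, edgeR adjusted p = 0.000598, interval of the fold 0.565 to 0.729). Chromosome 7 as a whole had a median log2 fold change of -0.01. On the opposite strand Synm overlaps Ttc23, at a mean of 27.6 CPM in WT and 26.6 CPM in the AS line, and Gm45102, at means of 0.384 and 0.469 CPM, whose sequence matched Synm at 100% over 426 bases. Whether strand was used in counting is unknown, so reads of Synm and of these genes cannot be told apart with certainty.

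Des encodes desmin, the type III protein of muscle, which is also used as a marker of mesangial cells and of injured podocytes in rodents. Des (ENSMUSG00000026208.10, chromosome 1) was near 1 CPM, at 0.237, 1.62 and 0.845 CPM in WT podocytes and at 1.11, 0.895 and 1.24 CPM in AS podocytes. The WT samples spanned more than the AS samples and the groups overlapped. The log2 fold change was 0.27 (SE 0.53, edgeR adjusted p = 0.722), and without WT replicate 1 it was -0.19. The interval of the fold, 0.589 to 2.46, was wide at 127 WT and 164 AS counts in all. Among 8 markers of mesangial and smooth muscle cells, which also carry desmin, 7 were tested and 4 were lower in AS podocytes. These 4 were Cnn1, Myh11, Pdgfrb and Tagln. With 1 sample left out, the log2 fold change was -3.09 to -2.66 for Myh11, -1.15 to -1.08 for Pdgfrb and -0.62 to -0.50 for Tagln. Over all genes tested the share called lower was 19.6%. Cnn1, the actin-binding protein calponin, was at 464 ± 15.2 CPM in the WT line and 137 ± 8.62 CPM in the AS line (log2 fold change -1.76), while Acta2, smooth muscle actin, was at 5503 to 7648 CPM in WT and 6296 to 7421 CPM in AS samples. The summed level of that list was 10240 to 12770 CPM in WT and 9230 to 10841 CPM in the AS line. Its part in the values of Des was not tested.

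Among the keratins, Krt19 and Krt18, both of type I, were lower in AS podocytes, and their possible type II partner Krt7 was not called. Krt19 encodes the smallest type I keratin, which is found in simple epithelia and ducts. Krt19 (ENSMUSG00000020911.15, chromosome 11) was at 2.84, 5.36 and 3.73 CPM in WT podocytes and at 0.710, 0.272 and 0.036 CPM in AS podocytes. The highest AS sample stood below the lowest WT sample, and AS replicate 3 held 2 counts. Like Krt18 below, Krt19 owed its passage of the filter on low counts to its WT samples, since AS replicate 3 lay below the minimum count of 10. The means were 3.98 ± 1.28 CPM and 0.340 ± 0.342 CPM (SD, n = 3 each). AS over WT gave a log2 fold change of -3.60 (SE 0.59, edgeR adjusted p = 0.00113), and it was -4.70 without AS replicate 1. Summed over samples, 567 WT counts stood against 48 AS counts, a ratio per effective library size of 0.0803 with an exact binomial 95% interval of 0.0585 to 0.108, which covers counting error only. In these bulk samples fewer cells carrying a transcript and less of it per cell cannot be told apart.

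Krt18, the type I partner of Krt8 in simple epithelia, was rare in both lines. Krt18 (ENSMUSG00000023043.8, chromosome 15) had 13, 16 and 13 counts in WT podocytes, or 0.256, 0.342 and 0.282 CPM, and 0, 3 and 0 counts in AS podocytes. All 3 AS counts came from AS replicate 2. The summed counts were 42 and 3, and the ratio of AS to WT was 0.0677 (exact binomial 95% interval 0.0134 to 0.212). The fit gave a log2 fold change of -3.73 (SE 0.84, edgeR adjusted p = 0.00625). It was -6.85 without AS replicate 2, a value that depends on the prior count because no AS count then remains. Krt18 passed the filter only through its WT samples. A copy, Gm5200, matched Krt18 at 90.5% over 1267 bases and was listed at 0 in every sample.

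Krt8, the type II partner of Krt18, had 2, 2 and 0 counts in WT podocytes and 3, 0 and 0 counts in AS podocytes. Krt8 (ENSMUSG00000049382.11, chromosome 15) was therefore at or near the limit of 3 counts per group, which is 0.0209 CPM in WT and 0.0198 CPM in the AS line. The ratio of its summed counts, 3 over 4, was 0.711 with an exact interval of 0.104 to 4.20, and no difference was detectable at this depth. A pseudogene, Krt8-ps, matched Krt8 at 98.6% over 941 bases and was also listed at 0, so how reads shared by such copies were assigned is uncertain for both genes.

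Krt7 encodes a type II keratin of simple and ductal epithelia. Krt7 (ENSMUSG00000023039.18, chromosome 15) was at 2.45, 3.33 and 2.67 CPM in WT podocytes and at 3.15, 4.01 and 3.27 CPM in AS podocytes. The highest WT sample lay inside the AS range. Its log2 fold change was 0.31 (SE 0.18, edgeR adjusted p = 0.221, interval of the fold 0.962 to 1.59). On chromosome 15, where Krt7, Krt8 and Krt18 all lie, the median gene had a log2 fold change of 0.20, and 79.1% of its 431 genes with a mean log2 CPM over 2 were higher in AS podocytes. Relative to that median the value of Krt7 was 0.10. The genes Gm671, Gm36026 and Gm15179 overlap Krt7, Krt8 and Des on the opposite strand, and none had a group mean above 0.0203 CPM.

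The log2 ratio of Krt7 to Krt19, taken per length within each sample, was -2.14, -2.61 and -2.41 in WT podocytes and 0.22, 1.95 and 4.57 in AS podocytes. Krt19 stood above Krt7 in every WT sample and below it in every AS sample. The difference was 4.64, with p = 0.1 in a two-sided exact permutation test, the smallest value that 3 against 3 samples can give. It was 3.48 without AS replicate 3, which held 2 counts of Krt19, and 5.65 without AS replicate 1. The ratio reuses the Krt19 counts given above, so it is no support apart from them.

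The other keratins were described from the full family. Of 53 protein coding keratin genes 33 had a count, 29 in at least 1 WT sample and 22 in at least 1 AS sample. A total of 8 were tested, and 3 of them, Krt18, Krt19 and Krt20, were lower in AS podocytes, against 19.6% of all genes tested. Krt18 and Krt19 passed the filter on low counts only through their WT samples, so this count is no support. Krt20, a type I keratin of the gut and urothelium, was at 1.89, 4.21 and 4.75 CPM in WT and at 1.67, 2.16 and 1.91 CPM in the AS line. The lowest WT sample lay inside the AS range, and the call (log2 fold change -0.91, edgeR adjusted p = 0.0424) was lost in 5 of the 6 fits that left out a sample. Without WT replicate 3 its log2 fold change was -0.67 with an adjusted p = 0.153. Krt12, Krt75 and Krt222, chosen after their values were seen, had 30, 15 and 12 counts over the WT samples and none in AS podocytes. Their pooled WT levels were 10.5-fold, 5.27-fold and 4.22-fold the limit of 3 counts in the AS line. The exact binomial 95% intervals of AS over WT reached up to 0.124, 0.264 and 0.341. They were not tested since they did not pass the filter, and as they were chosen by their values, these figures are no support. No keratin gene had a count in every AS sample and none in the WT samples. Krt28, not tested, went the other way without overlap, at 1, 0 and 0 counts in WT and 1, 5 and 3 counts in AS podocytes.

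The summed level of all keratin genes was 14.7, 21.5 and 18.2 CPM in WT podocytes and 13.2, 13.7 and 14.4 CPM in AS podocytes, so the groups did not overlap (18.1 ± 3.39 against 13.8 ± 0.633 CPM, exact permutation p = 0.1). Without Krt19 the sums were 11.9, 16.1 and 14.5 CPM against 12.5, 13.4 and 14.4 CPM, and the groups overlapped. Other keratin genes above 1 CPM in every sample, apart from Krt20, were Krt80, at 3.37 to 5.13 CPM in WT and 4.22 to 5.80 CPM in AS samples, and Krt10, at 1.17 to 1.87 and 1.81 to 2.42 CPM. Neither was called.

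**Figure D3:**
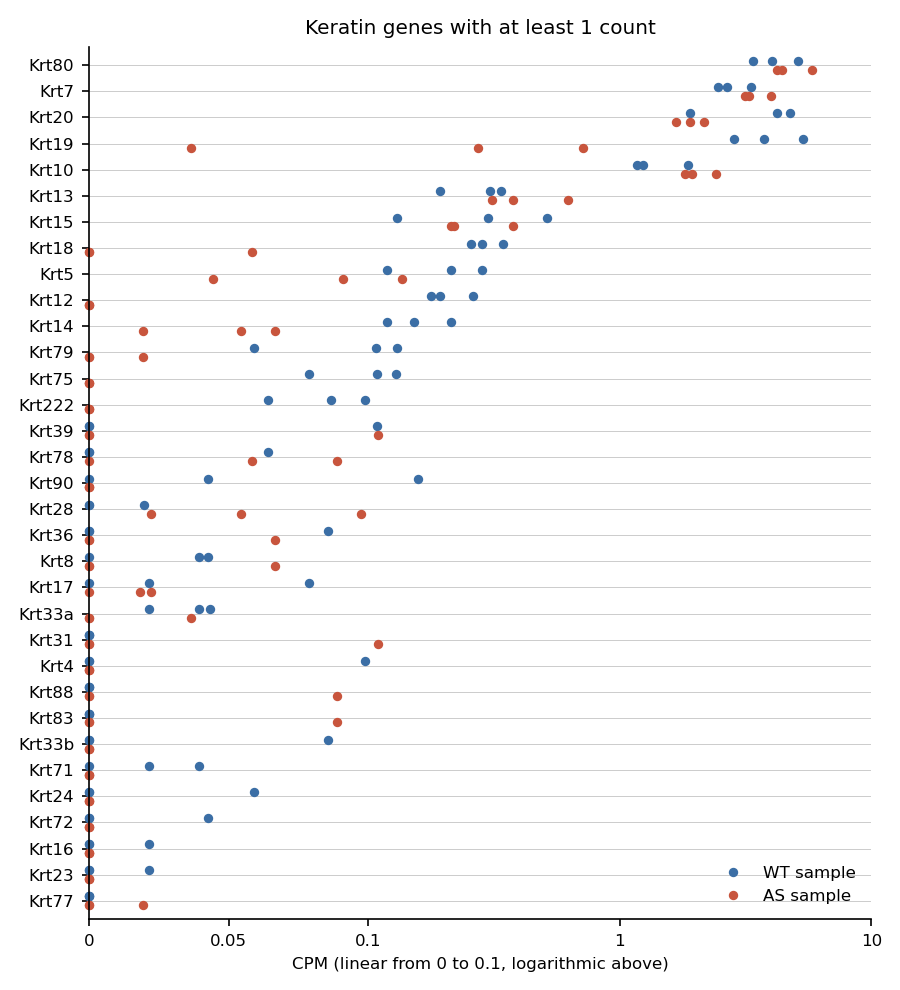
CPM of the 33 keratin genes with at least 1 count in each WT (blue) and AS (red) sample, on an axis that is linear from 0 to 0.1 CPM and logarithmic above. Krt19 and Krt18 have all AS points to the left of all WT points, and Krt12, Krt75 and Krt222 have every AS point at 0.

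Markers of the keratin-rich epithelia around the glomerulus were given beside these values. Of 8 markers of tubular and collecting duct cells, Umod and Aqp2 had no count, Epcam was at most 0.107 CPM and Cdh1 at most 0.433 CPM in any sample. The sum of this list, 247 to 308 CPM in WT and 197 to 307 CPM in the AS line, was almost all Lrp2, and neither of the 2 genes tested was called. Of 5 parietal epithelial markers, all tested, Cd24a was higher in AS podocytes, at 697 ± 25.6 CPM in WT and 908 ± 31.1 CPM in the AS line, Pax2 and Cd44 were lower, and 2 were not called. The log2 fold change of Cd24a, 0.38, became 0.059 relative to the median of chromosome 10. The 5 parietal markers summed to 1339 to 1375 CPM in WT and 1394 to 1477 CPM in the AS line. Of all genes tested, 40.1% were called in either direction. The part of the parietal markers in the keratin values was not tested.

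None of the 3 lamin genes, Lmna, Lmnb1 and Lmnb2, was called. Lmna encodes lamins A and C, which stiffen the nucleus. Lmna (ENSMUSG00000028063.16, chromosome 3) was at 625, 607 and 610 CPM in WT podocytes and at 609, 565 and 576 CPM in AS podocytes. AS replicate 1 lay inside the WT range and the other AS samples lay below it. The log2 fold change was -0.07 (SE 0.06, edgeR adjusted p = 0.355, interval of the fold 0.877 to 1.03).

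Lmnb1 encodes the B-type lamin B1, which stays farnesylated and bound to the membrane. Lmnb1 (ENSMUSG00000024590.9, chromosome 18) was at 21.6, 24.8 and 15.2 CPM in WT podocytes and at 20.3, 20.3 and 19.8 CPM in AS podocytes. The 3 AS samples stood close together inside the wide WT range, with a log2 fold change of -0.03 (SE 0.15, edgeR adjusted p = 0.907, interval of the fold 0.801 to 1.20). Lmnb2 was at 15.5, 17.8 and 14.8 CPM in WT and at 15.2, 19.8 and 17.8 CPM in the AS line (log2 fold change 0.13, edgeR adjusted p = 0.388). It lies on chromosome 10, where the median log2 fold change was 0.32, so its value lay below that median.

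All 10 markers of proliferation tested were called lower in AS podocytes, against 19.6% of all genes tested. Their sums were 253 to 399 CPM in WT and 202 to 216 CPM in AS samples. Mki67 was at 64.1, 65.8 and 37.2 CPM in WT podocytes and at 28.2, 25.9 and 30.5 CPM in AS podocytes (log2 fold change -0.98, edgeR adjusted p = 0.00253). Ccnb1, the mitotic cyclin, was at 15.1, 14.5 and 9.84 CPM against 6.33, 5.78 and 6.18 CPM (log2 fold change -1.11, edgeR adjusted p = 0.000594). WT replicate 3, the lowest sample in Lmnb1, was also the lowest WT sample in both markers. Their part in the lamin values was not tested.

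**Figure D4:**
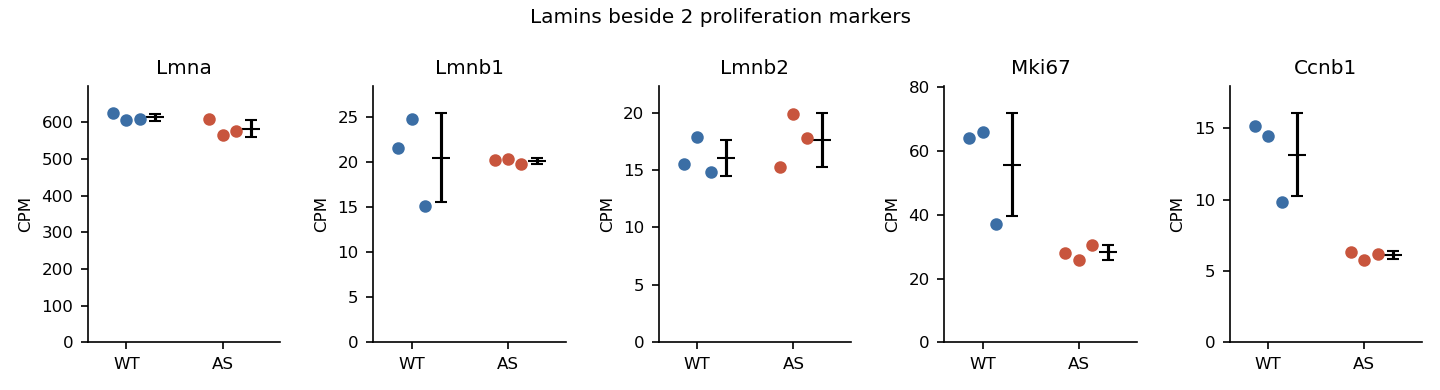
CPM of the 3 lamin genes and of the proliferation markers Mki67 and Ccnb1 in each WT (blue) and AS (red) sample, with mean and SD of 3 samples. The lamin groups overlap, while every AS point of Mki67 and Ccnb1 lies below every WT point.

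The log2 ratio of Lmna to Lmnb1 per length, the A-type to B-type lamin balance, was 3.88, 3.64 and 4.35 in WT podocytes and 3.93, 3.82 and 3.88 in AS podocytes. The difference of -0.08 was smaller than the spread between WT samples (exact permutation p = 0.9), and it was 0.12 without WT replicate 3.

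To set levels of different genes side by side, CPM were divided by the length of the merged exons of each gene in kilobases. On this scale the level was 616 CPM per kb for Vim in WT podocytes and 618 in AS podocytes, which was 76.3% and 77.5% of the summed level of the 10 genes. Lmna followed at 105 and 99.9 CPM per kb, then Nes at 60.0 and 61.9, Synm at 15.7 and 10.1, and Lmnb1 at 6.92 and 6.80. These first 5 kept their order in both lines, and within each line the ranges of neighbours in that order did not overlap. Krt19, at 2.14 CPM per kb, came next in WT podocytes. In AS podocytes, at 0.183 CPM per kb, it stood below Krt7 at 0.493 and Des at 0.288, and its range overlapped that of Des. Des and Krt7 stood at 0.240 and 0.399 CPM per kb in WT podocytes and their ranges overlapped there, as did those of Des and Krt18 at 0.204. Krt8 stood at 0.014 and 0.011 CPM per kb, and in AS podocytes Krt8 and Krt18 had 3 counts each and overlapping ranges.

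The log2 ratio of Vim to the sum of the 4 keratins, the type III protein against the keratins of simple epithelia, was 8.12, 7.44 and 7.96 in WT podocytes and 9.46, 9.68 and 10.33 in AS podocytes, per length. Every AS ratio stood above every WT ratio. The difference was 1.99 (exact permutation p = 0.1, the smallest possible). Of the 5 genes in this ratio, the groups did not overlap for Krt19 and Krt18. The ratio reuses the counts of these genes, so it is no support apart from theirs, and it was not run without Krt19.

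Among 60 other intermediate filament genes 39 had a count and 12 were tested. Of these, 4 were lower in AS podocytes, 0 higher and 8 not called, with a median log2 fold change of 0.05. The shares over all genes tested were 19.6% lower and 20.4% higher. Gfap, the type III protein of astrocytes, was at 1.09 ± 0.382 CPM in WT and 0.114 ± 0.0499 CPM in the AS line (log2 fold change -3.24, edgeR adjusted p = 0.000593), and it passed the filter only through WT samples. Ina, the neuronal protein alpha-internexin, was at 2.16 ± 0.316 and 1.11 ± 0.0830 CPM (log2 fold change -0.95, edgeR adjusted p = 0.00654). Krt20, above, and Iffo2 were the others. Iffo2, at 57.1 and 50.5 CPM (edgeR adjusted p = 0.0483), lost its call in 4 of the 6 fits that left out a sample, with an adjusted p = 0.154 without AS replicate 3. The log2 fold change of Iffo2, -0.18, became -0.015 relative to the median of chromosome 4. That of Ina became -1.14 relative to the median of chromosome 19. Nefl, the light neurofilament chain, had no count.

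Cytolinkers and desmosomal proteins anchor intermediate filaments to junctions and to other filaments. Of 22 such genes 16 were tested, with 2 higher, 6 lower and 8 not called in AS podocytes, and a median log2 fold change of -0.04. The shares called over all genes tested were 20.4% higher and 19.6% lower. Dsc2, one of the lower genes, passed the filter only through its WT samples. Evpl, which encodes the plakin envoplakin, was at 10.5 ± 0.888 CPM in WT and 0.875 ± 0.279 CPM in the AS line (log2 fold change -3.57, edgeR adjusted p = 2.48e-06). Jup, the junctional protein plakoglobin, was at 299 ± 24.0 and 226 ± 5.41 CPM (log2 fold change -0.41, edgeR adjusted p = 0.00133). Pkp1, a desmosomal plakophilin, rose from 1.61 ± 0.176 to 7.61 ± 0.473 CPM (log2 fold change 2.24, edgeR adjusted p = 5.09e-06). Perp, a desmosomal membrane protein, was at 40.7 ± 11.9 and 104 ± 3.62 CPM (log2 fold change 1.36, edgeR adjusted p = 0.000314). Relative to the median of chromosome 10, Perp stood at 1.04. Plec, which encodes plectin, the cytolinker that binds vimentin, was at 1196, 1174 and 1162 CPM in WT and at 1441, 1122 and 1466 CPM in the AS line and was not called (edgeR adjusted p = 0.160).

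The proteins that bind the lamina or connect it to the cytoskeleton made up a list of 20 genes, of which 19 were tested, with 8 higher, 1 lower and 10 not called in AS podocytes, and a median log2 fold change of 0.23. Over all genes tested 20.4% were called higher and 19.6% lower. Syne1, which encodes nesprin-1, a giant linker of the nucleus to actin, was at 9.80 ± 0.241 CPM in WT and 30.4 ± 6.34 CPM in the AS line (log2 fold change 1.63, edgeR adjusted p = 2.63e-05). Tmpo, the lamin-binding protein LAP2, was at 126 ± 9.58 and 174 ± 7.01 CPM (log2 fold change 0.47, edgeR adjusted p = 0.000546). Syne3, which encodes nesprin-3, the nesprin that binds plectin, was at 12.1 ± 2.09 and 18.0 ± 0.726 CPM (log2 fold change 0.57, edgeR adjusted p = 0.00488). Ankle2, which acts on a chromatin protein of the lamina, was at 44.8 ± 2.25 and 55.5 ± 2.77 CPM (log2 fold change 0.31, edgeR adjusted p = 0.00458), and relative to the median of chromosome 5 its value was 0.10. Lemd3 was the 1 lower gene. Syne1 and Tmpo lie on chromosome 10, where the median log2 fold change was 0.32, and relative to that median they stood at 1.31 and 0.14. Sun2 and Cbx5, with log2 fold changes of 0.29 and 0.26, lie on chromosome 15, where the median was 0.20, and Banf1, at 0.23, lies on chromosome 19, where it was 0.19.

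Prelamin A and lamin B1 are farnesylated, clipped and methylated at their CaaX end. All 5 genes of that pathway were called, 2 higher and 3 lower in AS podocytes, against 40.1% called over all genes tested. Icmt, the methyltransferase, was at 127 ± 4.63 CPM in WT and 84.1 ± 0.444 CPM in the AS line (log2 fold change -0.59, edgeR adjusted p = 2.33e-05). Relative to the median of chromosome 4, Icmt stood at -0.43. Zmpste24, the protease that matures prelamin A, was at 150 ± 6.68 and 119 ± 5.02 CPM (log2 fold change -0.34, edgeR adjusted p = 0.00146), and relative to the median of chromosome 4 it stood at -0.18. Rce1, the protease of the CaaX end, was at 10.9 ± 0.972 and 15.1 ± 0.472 CPM (log2 fold change 0.48, edgeR adjusted p = 0.00358), and relative to the median of chromosome 19 it stood at 0.29. Fnta, a farnesyltransferase subunit on chromosome 8, had a log2 fold change of 0.21, which became -0.11 relative to the median of that chromosome. Fntb, the other subunit, was lower, with a log2 fold change of -0.23.

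Of 7 genes for chaperones and turnover of intermediate filaments, all tested, 0 were higher, 3 were lower and 4 were not called in AS podocytes. Their median log2 fold change was -0.08. Over all genes tested, 40.1% were called in either direction. Cryab, the small heat shock protein that binds desmin and vimentin, was at 1064 ± 82.1 CPM in WT and 764 ± 26.3 CPM in the AS line (log2 fold change -0.48, edgeR adjusted p = 0.000776). Bag3, a co-chaperone of filament turnover, was at 195 ± 5.44 and 138 ± 7.75 CPM (log2 fold change -0.49, edgeR adjusted p = 0.000181). Trim32, a ubiquitin ligase, was at 56.7 ± 0.783 and 44.5 ± 2.12 CPM. Its log2 fold change of -0.35 became -0.19 relative to the median of chromosome 4.

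Of 8 kinases that phosphorylate intermediate filament proteins, all tested, 1 was higher, 3 lower and 4 not called, with a median log2 fold change of -0.056. The share called over all genes tested was 40.1%. The 3 lower kinases, Cdk1, Aurkb and Plk1, are also on the proliferation list. Cdk1 and Aurkb, mitotic kinases of vimentin and lamins, were at means of 18.9 and 7.51 CPM in WT podocytes and at means of 13.1 and 4.27 CPM in AS podocytes. Plk1, a mitotic kinase, was at 10.1 ± 2.82 CPM in WT and 6.36 ± 1.07 CPM in the AS line with overlapping groups (log2 fold change -0.66, edgeR adjusted p = 0.0332), and its call was lost in 4 of the 6 fits that left out a sample, with an adjusted p = 0.105 without AS replicate 2. Prkaca, the catalytic subunit of protein kinase A, was the 1 higher gene. It lies on chromosome 8, and its log2 fold change of 0.24 became -0.09 relative to the median of that chromosome.

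**Figure D5:**
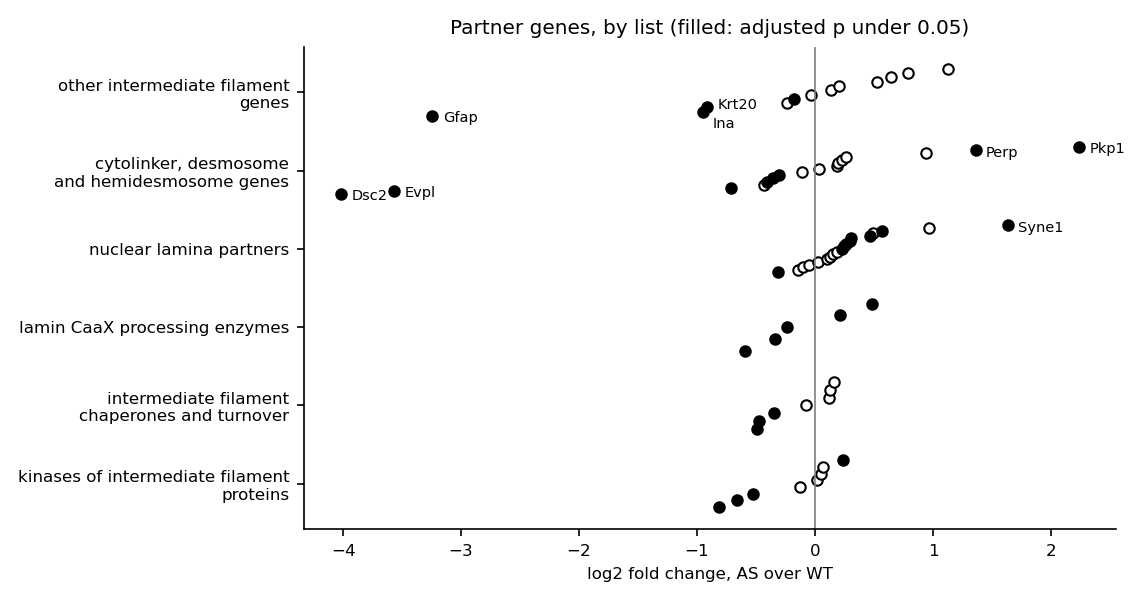
Differences between AS and WT podocytes as log2 fold change (x axis) for the tested genes of 6 lists (rows), filled where the adjusted p was under 0.05. Gfap, Evpl and Dsc2 stand farthest to the left, and Pkp1, Syne1 and Perp farthest to the right.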

How the data were processed

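For 3 WT and 3 AS samples, raw gene counts were deposited by the authors as whole numbers, not normalized. The submitters' processing notes name FastQC, Trim Galore, STAR, edgeR and the build mm39, and the methods of the study name limma with voom. Which tool counted the reads, and on which annotation release, is not given in the sources used here. Libraries were made from total RNA with an mRNA kit and 15 PCR cycles, without mention of molecular identifiers, so intervals cover counting error only. Symbols, chromosomes and exon lengths came from GENCODE M21, which matched 51880 of 57132 identifiers without their version. No gene coordinates of mm39 are given.

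Genes were filtered by filterByExpr (minimum count 10, minimum total 15), scaled by TMM and tested with the quasi-likelihood test of edgeR 4.0.16 in R 4.3.3, with Benjamini-Hochberg adjustment over 16263 genes and a threshold of 0.05. CPM are relative to TMM-scaled library sizes. Standard errors were derived from the F statistic and are approximate, as are the 95% intervals. Ratios were compared by a two-sided exact permutation test. Chromosome medians used genes with a mean log2 CPM over 2. Samples of a line correlated at 0.988 to 0.992 and samples of different lines at 0.952 to 0.956 in log2 CPM. No replicate pair agreed within sampling noise (chi-square per degree of freedom 9.78 to 49.9). Copies were searched at 90% identity over at least 300 bases.

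The members and lists were chosen with earlier results of these data known. Named genes were the 10 members, Col4a3, their copies, and of each list up to 4 called genes by smallest adjusted p, or up to 3 of the most abundant where under 3 were called. Lemd3, Fntb, Plec, Lmnb2, Sun2, Cbx5, Banf1, Dsc2, Nefl, some keratins and some markers were named beyond that rule after their values were seen. Fibroblast markers (Col1a1 and Dcn higher, Col1a2 lower, 1 not called of 4 tested), endothelial markers (Kdr lower, 1 tested, adjusted p = 0.0441 and 0.132 without AS replicate 3, and past the filter only through its WT samples) and leukocyte markers (0 called of 2 tested) were checked too. The fibroblast markers summed to 51.5 to 59.2 CPM in WT samples and 414 to 594 CPM in AS samples. Their part in the values of the 10 members was not tested. The share called over all genes tested was 40.1%. Alternatives used other scalings and filters, limma-voom 3.58.1, DESeq2 1.42.0, a replicate block, each sample left out, and other gene lengths. A few genes of the lists are not reported here and were left out of the list counts. The scripts were tested on simulated data.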

Additional observations from a re-analysis of the deposited data

How the results depend on the processing

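Of the 10 genes, 3 were called under every alternative except the filter at a mean CPM of 1, which removed Krt18 and left 2. Genes called over all ranged from 5120 without AS replicate 3 to 7066. Over the alternatives the adjusted p ran from 1.83e-11 to 0.00243 for Synm, from 1.35e-16 to 0.00699 for Krt19 and from 0.00206 to 0.0275 for Krt18. With the chromosome median subtracted, the log2 fold change was -3.93 for Krt18, 0.10 for Krt7 and 0.025 for Lmna, and it turned to -0.11 for Fnta and -0.087 for Prkaca. Leaving out 1 sample at a time gave -6.85 to -3.14 for Krt18, -0.19 to 1.01 for Des, 0.19 to 0.44 for Krt7, -0.11 to -0.06 for Lmna, -0.20 to 0.13 for Lmnb1, -0.059 to 0.18 for Nes, -0.041 to 0.036 for Vim, and -0.24 to 0.12 for the log2 ratio of Lmna to Lmnb1. Vim stood at -0.0034 with RLE scaling, -0.0034 with DESeq2 and -0.0017 under the filter at a mean CPM of 1, and Lmnb1 at 0.00069 with library size only. Of the list genes, Cd68 stood at 0.0016 with limma-voom and at -0.29 to 0.28 with 1 sample left out, and Lrp2 at -0.27 to 0.046, above 0 without AS replicate 2. The values with the chromosome median subtracted have no test, none of the other sign changes passed the threshold, and their cause was not tested. The log2 ratio of Krt7 to Krt19 was 3.48 to 5.65 with 1 sample left out. That of Vim to the 4 keratins was 1.74 to 2.17 with 1 sample left out and 1.65 with the longest transcript length. The longest protein coding transcript was an alternative chosen after seeing the data. The ratio of Krt8 to Krt18 was not run because samples held 0 counts. Below about 1 CPM, as for Krt8 and Krt18, the counts limit what can be seen.

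Same-numbered samples deviated together with correlations of 0.284, 0.160 and 0.0801, and 5 of 6 samples correlated best with their own number, which is a hint from the data and not the design. With the replicate block, 3 of the 10 genes and 7066 genes in all were called.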
